A study of Mus musculus with 4 samples.

Results

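The AP-1 and BATF transcription factors were described in mouse CD4+ T cells through 9 genes, Batf, Batf3, Jun, Junb, Jund, Fos, Fosb, Fosl1 and Fosl2. A probe belonged to the family if the gene name in the scanner files equalled one of these symbols, which gave 10 probes, 1 a gene except for Fosl2 with 2. They are 9 of 27528 gene and transcript names on the array. Expression was measured on 4 one-colour Agilent arrays, 2 of miR-155 knockout cells (labelled miR155 knockout) and 2 of wild-type cells (labelled WT). Cells of both genotypes had been grown with antibodies to CD3e and CD28, TGFb and IL-6, and both were then sorted as CD4+ cells positive for a red fluorescent (RFP) reporter of IL-17F, so that only reporter-positive cells of either genotype were compared. The series' title asks about IL-23 responsiveness and effector genes of T helper 17 (Th17) cells. The labels give no age, number of animals or date of culture, and nothing says whether an array holds RNA of 1 animal or of several, so p-values measure only the spread between these arrays, part of which may be technical.

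AP-1 proteins carry a basic region that contacts DNA and a leucine zipper through which they pair. Jun proteins pair with each other or with Fos proteins, and the pairs bind the AP-1 element of many genes switched on by the T cell receptor. Batf and Batf3 pair with Jun proteins but lack the activation domains of Fos. In mouse T cells, Batf with Jun partners and Irf4 binds composite elements of Th17 genes, and mice without Batf lack Th17 cells. Fos has been reported as a direct target of miR-155 in dendritic cells. The mature microRNA that the knockout cells lack is shown with its seed, bases 2 to 8, in capitals, since this stretch pairs with target messages (RefSeq, GRCm38.p6, chr16:84714143-84714165, plus strand).
mmu-miR-155-5p: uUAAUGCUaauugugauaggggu
No probe carries the name of miR-155 or of its host gene, so its loss was not checked on these arrays.

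All values are log2 processed signals minus the array's 75th percentile over non-control probes, so that 0 is the signal of the probe at that percentile. Differences are log2 knockout minus wild type. Levels of different probes are not set against each other, because probes differ in how brightly they bind. The scanner software rated 63.5% to 69.8% of the spots of an array as well above background and 0 as saturated. All 10 probes of the family were well above background on all 4 arrays, so that none entered through 1 genotype alone. The CD4 T cell markers Cd3d, Cd3e, Cd3g, Cd4, Cd5, Cd28 and Lck had differences of -0.20 to 0.047. Their summed level was 594 and 598 times the array's 75th percentile on the knockout arrays, against 604 and 649 on the wild-type arrays. Knockout array 1 stood apart in its evenness. The scanner software's multiplicative correction for spatial trends had been applied to 0.801% of its spots well above background, against 100% on the other 3 arrays, and both corners of that array at the right-hand edge of its grid, called corner blocks here, were dark.

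The 2 BATF genes had the highest values relative to wild type, Fos and Jun lay below it, and the other 5 genes had differences of at most 0.24. limma, fitted across 37195 probes, called 0 of 10 probes of the family at an adjusted p of 0.05, as it called 0% of all probes. At an unadjusted p under 0.05, 1 of the 10 probes was counted, that of Batf3, where 10.1% of all probes were. With 1 probe a gene this made 1 gene of 9, where the share over all genes tested was 10.2% (6.62% higher and 3.59% lower in the knockout). The knockout arrays lay wholly beyond the wild-type arrays for 4 of 9 genes, namely Batf, Batf3 and Fosl2 above and Fos below, where 47.7% of all genes did so (25.2% above and 22.5% below). The family's counts were thus near the background. Its median difference was 0.13, against 0.015 over all 19787 genes tested. Of the 9 genes, 7 had higher and 2 lower values in the knockout, but with each array shifted by its median in place of its 75th percentile 3 were higher and 6 lower, and with quantile normalization 6 and 3. That median shift moved every probe alike and left the median of all probes at -0.12, against 0.036 in the fit given here. Over all probes at an unadjusted p under 0.05 it turned the split of 2531 higher and 1234 lower into 1292 higher and 3397 lower, and quantile normalization gave 1947 and 2065. In these bulk samples fewer cells of a type and less RNA per cell cannot be told apart, and a p that misses the threshold does not show that 2 genotypes have the same level.

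**Figure D1:**
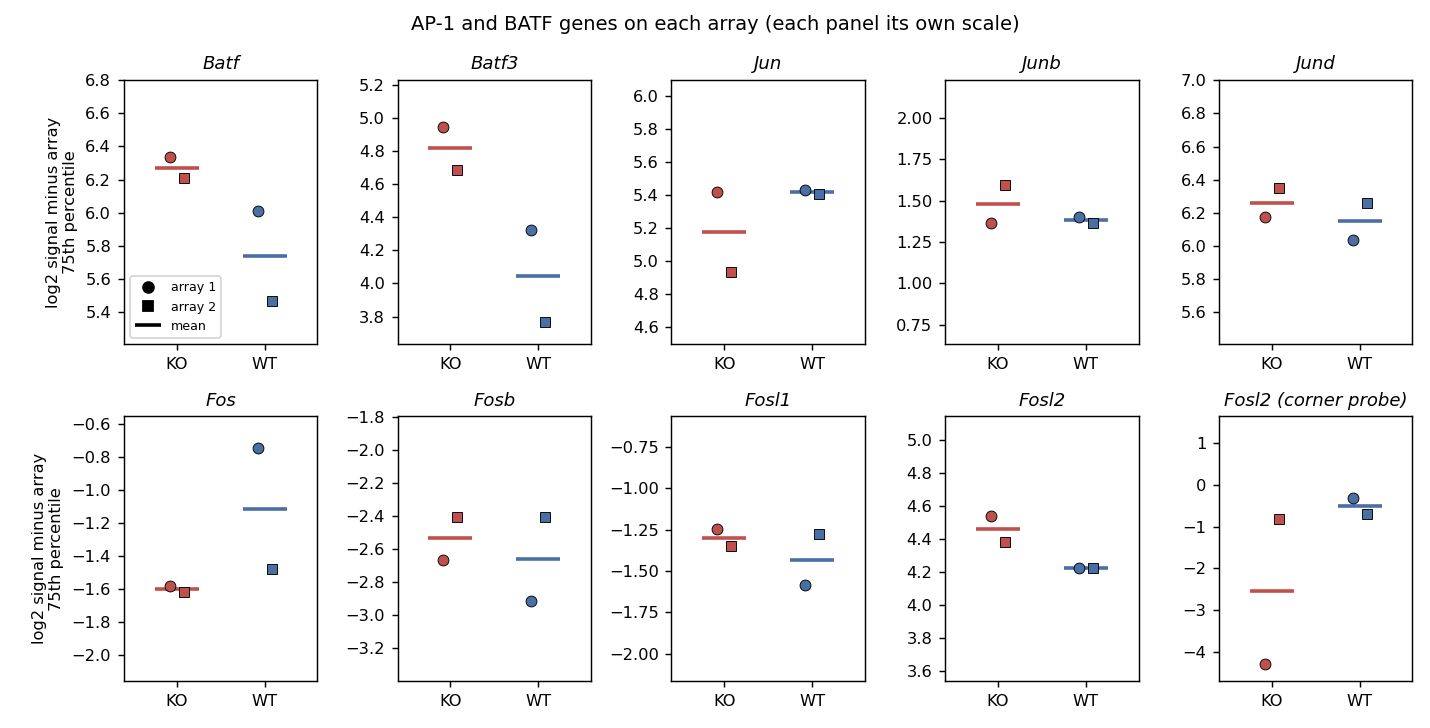
Log2 signal minus the array's 75th percentile for the 10 probes of the 9 genes, knockout (KO) left and wild type (WT) right in each panel, with circles for array 1, squares for array 2 and lines for the means of 2 arrays. Each panel has its own scale. Batf, Batf3 and the Fosl2 probe outside the corner blocks had both knockout arrays above both wild-type arrays, and Fos had them below, by a gap of 0.098.

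Batf, the family member that Th17 differentiation needs in mice, was measured by a probe at chr12:87049872-87049929 (mm9, plus strand) that was spotted 10 times on each array. Its value was 6.33 and 6.21 on knockout arrays 1 and 2, against 6.01 and 5.46 on wild-type arrays 1 and 2. Both knockout arrays were above both wild-type arrays, with 0.20 between the nearest, while the 2 wild-type arrays lay 0.55 apart. The means were 6.27 ± 0.09 in the knockout and 5.74 ± 0.39 in wild type (SD, n = 2 each), a difference of 0.53 ± 0.23 (SE) or 1.45-fold. limma gave an unadjusted p of 0.0785 and an adjusted p of 0.521. The difference was 0.26 without wild-type array 2 and 0.81 without wild-type array 1, so the lower wild-type array set much of its size. It also depended on the scaling, at 0.37 with median scaling (limma unadjusted p of 0.230).

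Replicate spots put a scale on these numbers. The used spots of the Batf probe had an SD of 0.026 to 0.044 within an array, and their ranges did not overlap between any 2 of the 4 arrays. They ran from 6.27 to 6.39 on knockout array 1 and from 6.16 to 6.24 on knockout array 2, against 5.93 to 6.06 on wild-type array 1 and 5.40 to 5.54 on wild-type array 2. The spread between arrays of 1 genotype was therefore larger than the spotting error. 1 of the 10 spots on knockout array 2 was flagged as an outlier by the scanner software and left out.

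Batf3, known for its role in dendritic cells that cross-present antigen, shared the pattern of Batf. The probe at chr1:192932528-192932587 (mm9, plus strand) read 4.95 and 4.69 on the knockout arrays, against 4.33 and 3.77 on the wild-type arrays. The groups lay 0.36 apart, and the wild-type arrays again differed by 0.56, with array 2 the lower. Its means were 4.82 ± 0.18 in the knockout and 4.05 ± 0.40 in wild type (SD, n = 2 each), a difference of 0.77 ± 0.25 (SE) or 1.71-fold. limma gave an unadjusted p of 0.0330 and an adjusted p of 0.470. Over the 16 alternatives the difference ran from 0.49 to 1.05 and the unadjusted p from 0.0106 to 0.127, under 0.05 in 11 of them. Of 6 dendritic cell markers 4 were tested, Itgax, Zbtb46, Flt3 and Siglech, and their means were higher in the knockout for all 4, but for 3 with median scaling, and Zbtb46 overlapped between genotypes. Flt3, the receptor of a dendritic cell growth factor, was at 0.60 ± 0.17 (SE) with a limma unadjusted p of 0.0212 from the brightest of its 3 probes. The differences of the 3 probes ran from 0.18 to 0.60. The markers of cross-presenting dendritic cells, Xcr1 and Clec9a, were too dim to be tested. The summed level of the 4 tested markers was 191 and 173 times the 75th percentile on the knockout arrays, against 164 and 161 on the wild-type arrays. Nearly all of it came from Siglech, whose difference was 0.16 ± 0.13 (SE) from the brighter of its 2 probes and 0.60 from the other. Without Siglech the sum was 0.625 and 0.558 on the knockout arrays, against 0.403 and 0.374 on the wild-type arrays. The markers' part in the value of Batf3 was not tested.

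**Figure D2:**
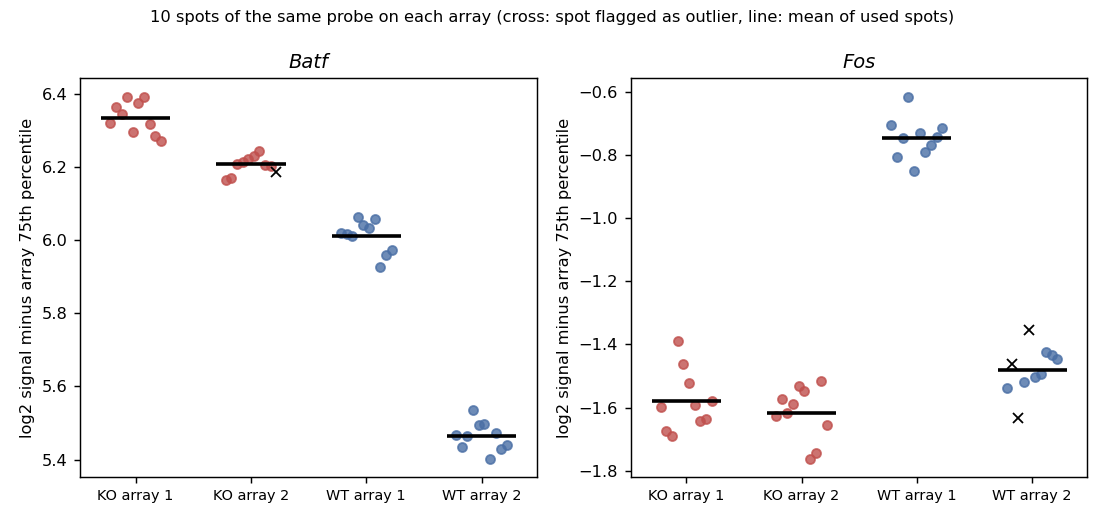
The 10 replicate spots of the Batf and Fos probes on each array, as log2 signal minus the array's 75th percentile, with knockout arrays left of wild-type arrays, lines at the mean of the used spots and crosses for spots flagged as outliers. On this scale the Batf spots separate all 4 arrays, but before the shift by the 75th percentile only wild-type array 2 stands apart. The Fos spots of wild-type array 2 overlap those of both knockout arrays, and wild-type array 1 stands above the rest.

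The Jun proteins, which serve as partners for both Fos and Batf, differed little. Jun read 5.42 and 4.94 on the knockout arrays, against 5.43 and 5.40 on the wild-type arrays (chr4:94716928-94716987, mm9, minus strand). Knockout array 1 lay between the 2 wild-type arrays, so the groups overlapped, and knockout array 2 alone was low. The difference of -0.24 ± 0.21 (SE) had a limma adjusted p of 0.673, and it was -0.00093 without knockout array 2 and -0.48 without knockout array 1. Junb, which mouse Th17 cells need for their pathogenic form, read 1.37 and 1.59 in the knockout, against 1.40 and 1.37 in wild type (chr8:87501881-87501940, mm9, minus strand). Its groups overlapped as well, at a difference of 0.096 ± 0.15 (SE) that turned to -0.065 with median scaling. Jund, a Jun protein that many resting cells express, read 6.17 and 6.35 in the knockout, against 6.04 and 6.26 in wild type (chr8:73224436-73224495, mm9, plus strand). The arrays of the 2 genotypes alternated in order, and the difference of 0.11 ± 0.16 (SE) turned to -0.050 with median scaling.

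Fos, an immediate early gene that is switched on within minutes of stimulation and then off, had a lower mean in the knockout, but this rested on 1 array. Its probe at chr12:86817900-86817959 (mm9, plus strand), also spotted 10 times, read -1.58 and -1.62 on the knockout arrays, against -0.75 and -1.48 on the wild-type arrays. Wild-type array 1 was the high one, by 0.73 over wild-type array 2, and wild-type array 2 lay 0.098 above the nearer knockout array. The means were -1.60 ± 0.03 in the knockout and -1.11 ± 0.52 in wild type (SD, n = 2 each), a difference of -0.48 ± 0.28 (SE), with a limma unadjusted p of 0.159 and an adjusted p of 0.577. Without wild-type array 1 the difference was -0.12, and without wild-type array 2 it was -0.85. The used spots ran from -1.69 to -1.39 on knockout array 1 and from -1.76 to -1.51 on knockout array 2, against -0.85 to -0.61 on wild-type array 1 and -1.54 to -1.43 on wild-type array 2. The spots of wild-type array 2 thus overlapped those of both knockout arrays. 1 of the 10 spots lay in a corner block, and with the corner spots left out the difference was -0.48.

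The remaining Fos relatives were close to wild type outside the corner blocks. Fosb, induced together with Fos in many cells, read -2.67 and -2.41 in the knockout, against -2.92 and -2.40 in wild type (chr7:19888168-19888227, mm9, minus strand). Fosl1, which encodes the Fos-related protein Fra-1, read -1.25 and -1.35 in the knockout, against -1.58 and -1.28 in wild type (chr19:5455496-5455555, mm9, plus strand). Both overlapped between genotypes, at differences of 0.13 ± 0.23 and 0.13 ± 0.17 (SE), which median scaling turned to -0.035 and -0.027. Fosl2, which encodes Fra-2, a factor that shapes the Th17 program in mice, was measured by 2 probes that disagreed in sign. The probe at chr5:32460076-32460135 (mm9, plus strand) read 4.54 and 4.38 on the knockout arrays, against 4.23 and 4.22 on the wild-type arrays. Both knockout arrays were above, at 0.24 ± 0.14 (SE) with a limma unadjusted p of 0.155 and an adjusted p of 0.574, and the value was 0.075 with median scaling.

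The other Fosl2 probe, at chr5:32455088-32455147 (mm9, plus strand), lay in a corner block at row 335 and column 158. Its processed signal was 22.9 on knockout array 1 and 271 on knockout array 2, against 453 on wild-type array 1 and 377 on wild-type array 2. Knockout array 1 alone was low, while the other knockout array was near wild type. The fitted surface of that array was 0.314 at this spot, against 0.859 to 0.924 on the other 3 arrays, and the signal had not been divided by it. The difference of -2.04 ± 1.21 (SE) became -1.22 with that division and -0.30 without knockout array 1. The dark corner thus moved with this value, and the probe outside the blocks represents Fosl2 in all counts.

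**Figure D3:**
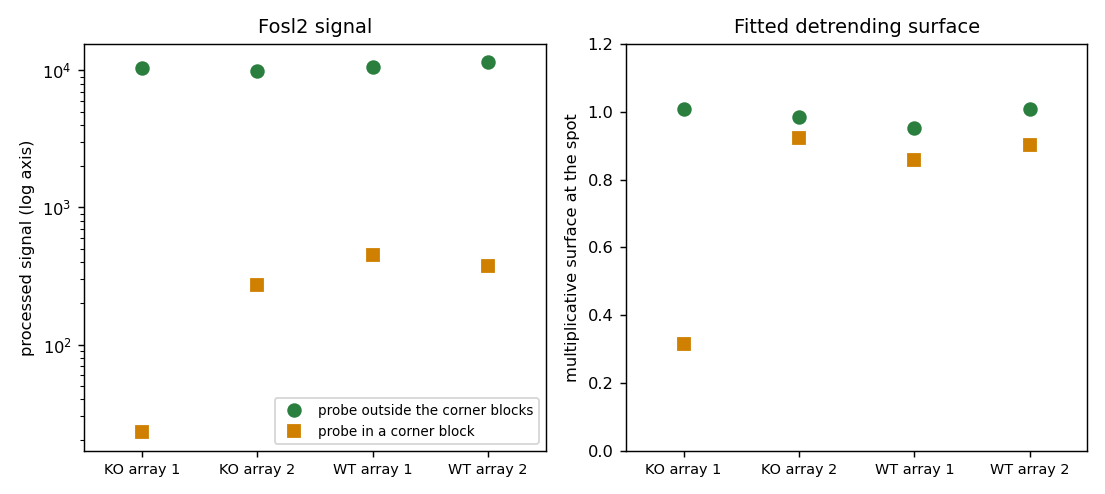
Left, processed signal of the 2 Fosl2 probes on each array, on a log axis. Right, the scanner software's fitted multiplicative surface at the same spots, knockout arrays left of wild-type arrays in both panels. The corner probe falls to 22.9 on knockout array 1, where the surface is 0.314, while the other probe is level across arrays.

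The upstream sequences of the 4 genes with the largest differences in either direction were read from RefSeq (GRCm38.p6) to show which AP-1 and related elements lie next to their starts. Of the 9 genes 8 matched the table. Shown are the 250 bases before the start, 5′ to 3′ on the gene's strand, with capitals for matches on either strand to the AP-1 element TGACTCA, the cAMP response element TGACGTCA, its half-site TGACG (which the full element contains), the form TGACATCA known from the Jun promoter and the TATA box TATAAA. The regions are chr12:85686470-85686719 (plus strand) for Batf, chr1:191098164-191098413 (plus) for Batf3, chr4:95052223-95052472 (minus) for Jun and chr12:85473640-85473889 (plus) for Fos.
Batf: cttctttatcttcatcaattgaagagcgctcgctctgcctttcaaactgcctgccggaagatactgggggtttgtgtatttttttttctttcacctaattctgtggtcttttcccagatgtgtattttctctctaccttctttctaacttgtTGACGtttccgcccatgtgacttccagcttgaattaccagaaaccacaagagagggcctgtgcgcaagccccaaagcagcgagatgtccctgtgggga
Batf3: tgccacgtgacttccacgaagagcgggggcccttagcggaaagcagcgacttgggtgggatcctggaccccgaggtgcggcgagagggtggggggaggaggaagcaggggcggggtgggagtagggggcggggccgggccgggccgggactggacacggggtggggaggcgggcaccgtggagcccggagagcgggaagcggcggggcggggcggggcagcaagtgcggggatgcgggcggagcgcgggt
Jun: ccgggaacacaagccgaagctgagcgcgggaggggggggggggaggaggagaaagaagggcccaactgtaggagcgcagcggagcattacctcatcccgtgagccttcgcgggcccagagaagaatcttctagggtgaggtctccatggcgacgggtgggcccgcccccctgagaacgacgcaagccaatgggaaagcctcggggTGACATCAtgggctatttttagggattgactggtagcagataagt
Fos: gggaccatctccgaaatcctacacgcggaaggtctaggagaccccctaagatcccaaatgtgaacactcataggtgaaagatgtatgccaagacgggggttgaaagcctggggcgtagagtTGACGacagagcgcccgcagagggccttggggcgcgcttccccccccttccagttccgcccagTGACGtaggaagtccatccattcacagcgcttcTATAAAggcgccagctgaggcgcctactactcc
Among the 8 upstream regions 0 held TGACTCA and 0 held TGACGTCA, which 4.46% and 1.55% of all 32851 such regions hold. TGACG occurred in 4, those of Batf, Fos, Fosb and Junb, against 17.8% of all. TGACATCA occurred in the region of Jun, 45 bases before the start, against 2.93% of all, and TATAAA in that of Fos, against 12.4% of all. These are matches of letters in a short window and describe the sequences only.

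Batf and Fos are neighbours. On mm9 chromosome 12 their probes lie 232 kb apart, with that of Jdp2 between them, 163 kb from Fos and 69.2 kb from Batf. Jdp2 encodes Jun dimerization protein 2, which represses AP-1 elements, and it belonged to the list of other bZIP factors. It read 2.65 and 2.53 on the knockout arrays, against 1.561 and 1.501 on the wild-type arrays (chr12:86980657-86980716). The groups were far apart compared with their own spread, at a difference of 1.06 ± 0.13 (SE) or 2.08-fold, with a limma unadjusted p of 0.00110 and an adjusted p of 0.390. Over the 16 alternatives it ran from 0.90 to 1.12, with an unadjusted p under 0.05 in all 16 and a smallest adjusted p of 0.0979. The 3 neighbours thus had values of 1.06 for Jdp2, 0.53 for Batf and -0.48 for Fos.

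Of the 22 other bZIP factors 21 were tested. At an unadjusted p under 0.05, 5 were higher and 1 lower in the knockout, against 6.62% and 3.59% of all genes tested. At that p, 2 were higher and 2 lower with median scaling. The counts were 3 and 1 with knockout array 1 corrected for its surface, and 5 and 1 with quantile normalization. Of the 21, 0 passed over all probes. Higher values were measured for 15 and lower for 6, which median scaling turned into 8 and 13, and the median was 0.095. Batf2, the third BATF gene, read -3.14 and -3.45 in the knockout, against -4.03 and -4.29 in wild type, a difference of 0.86 ± 0.19 (SE). Both knockout arrays of Batf2 were above both wild-type arrays, and its difference stayed between 0.51 and 1.02 over the alternatives. Bach1, a repressor that pairs with small Maf proteins, had a difference of 0.48 ± 0.14 (SE), or 0.32 with median scaling (limma unadjusted p of 0.130). Its relative Bach2, which restrains effector T cells, had one of -0.53 ± 0.14 (SE). The unadjusted p was 0.00893 for Batf2, 0.0220 for Bach1 and 0.0164 for Bach2, with adjusted p of 0.420, 0.445 and 0.427.

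Most partners and upstream kinases differed by small amounts. Irf4, with which Batf binds composite elements, read 6.52 and 6.07 in the knockout, against 5.99 and 6.24 in wild type, and the groups overlapped. Among the 5 tested IRF and NFAT partners 0 had an unadjusted p under 0.05 and the median was -0.094. Nfatc2 was at -0.19 ± 0.13 (SE) from the brighter of its 2 probes and at -0.50 from the other. The median over 20 MAP kinases, their targets and AP-1 turnover factors was 0.022 (-0.14 with median scaling). At an unadjusted p under 0.05, 1 of the 20 was lower and 0 higher, against 3.59% and 6.62% of all genes tested. That gene was Map3k5, a kinase of the stress pathway, at -0.47 ± 0.15 (SE), and its 2 probes disagreed, at -0.47 and 0.025. Map2k3, a kinase that activates p38, was at 0.25 ± 0.14 (SE).

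Other immediate early genes, which share with Fos a rapid response to stimulation, mostly had lower values in the knockout. Of 16 tested, 13 were lower, 4 of them at an unadjusted p under 0.05, and 10 had both knockout arrays below both wild-type arrays. Over all genes tested the shares were 3.59% lower at that p and 22.5% with both knockout arrays below. Of the 16, 0 passed over all probes, and the median was -0.37. Nr4a2, an orphan nuclear receptor, was at -0.90 ± 0.22 (SE), Myc at -0.60 ± 0.20 (SE) and Dusp1, a phosphatase of MAP kinases, at -0.53 ± 0.14 (SE). Egr3, a zinc finger factor at -0.64 ± 0.15 (SE), was well above background on 1 of 2 knockout arrays, and it turned to 0.048 with knockout array 1 corrected for its surface. The probes of 6 of the 16 lay in corner blocks, Dusp1 among them. The 10 genes with both knockout arrays below include Ier2, Dusp1, Zfp36, Btg2 and Socs3 from these blocks, each lowest on the dark knockout array 1. Btg2 read -1.62 on knockout array 1 and 2.15 on knockout array 2, against 2.58 and 2.20 on the wild-type arrays. Outside the blocks 7 of 10 were lower, 3 of them at an unadjusted p under 0.05. Without wild-type array 2 the count over all 16 was 10 lower and 6 higher, with 1 lower at an unadjusted p under 0.05. Wild-type array 1, which was the highest array for Fos, was the highest for 4 of the 16, against 17.8% of all genes. Of the heat shock genes, which handling of cells can raise, 1 of 5 tested was higher at an unadjusted p under 0.05, Hspb1 at 0.99 ± 0.26 (SE). Their median was 0.0037 (-0.16 with median scaling), and 6.62% of all genes tested were higher at that p.

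**Figure D4:**
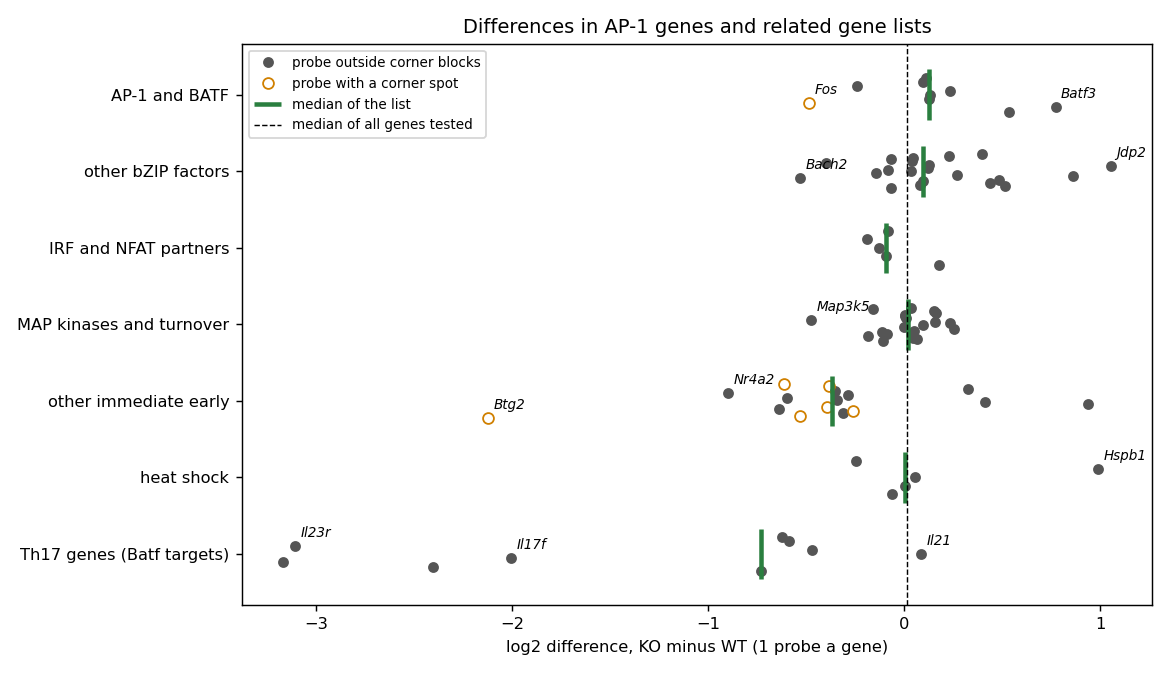
Log2 difference (knockout minus wild type) of each tested gene by list, 1 probe a gene, with open circles for probes that have a spot in a corner block, green bars for list medians and a dashed line for the median of all genes tested. The AP-1 and BATF genes lie on both sides of the median of all genes, with Batf3 at 0.77 and Batf at 0.53 above it and Fos at -0.48 below, while other immediate early genes lie mostly below it and Th17 genes furthest below.

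Most of the Th17 genes studied as Batf targets had lower values in the knockout. Of 9 tested, 8 were lower, with a median of -0.73 and 0 passing over all probes. At an unadjusted p under 0.05, 7 of the 9 were lower, against 3.59% of all genes tested. Il23r, the IL-23 receptor chain, was at -3.11 ± 0.39 (SE), but at -1.66 ± 0.205 (SE) with normexp background correction. Il17f, the gene of the sorted reporter, was at -2.01 ± 0.19 (SE), Il17a at -3.17 ± 0.53 (SE) and the chemokine receptor gene Ccr6 at -2.40 ± 0.37 (SE). The exception, Il21, a cytokine gene named after its value was seen, was at 0.087 and overlapped between genotypes. On the same arrays Batf was at 0.53, Junb at 0.096 and Irf4 at 0.18, the last of which turned to -0.050 without knockout array 1. The part of Batf, Junb or Irf4 in the values of the Th17 genes was not tested.

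Genes with the array pattern most like that of Batf or Fos were sought among 13445 tested genes named by a symbol, after subtracting each gene's own mean over the 4 arrays. The closest to Batf were Ms4a6d, Itgb5 and Ebi3, at Euclidean distances of 0.068, 0.069 and 0.073 over 4 arrays. The closest to Fos were Lalba, Plk2 and Ctnnd1, at 0.064, 0.12 and 0.14. With 4 arrays such likeness is a description of these arrays only. Markers of other lymphocytes were also read beside the BATF genes. Of 5 B cell markers 4 were tested, all with higher values in the knockout, and Ms4a1 was too dim to be tested. Their summed level was 3.45 and 3.78 times the 75th percentile on the knockout arrays, against 2.08 and 1.43 on the wild-type arrays, most of it from Cd79b. The member at an unadjusted p under 0.05 was also Cd79b, from a corner block, at 1.16 ± 0.26 (SE). Outside the corner blocks 3 of 3 were higher and 0 had an unadjusted p under 0.05. Of 5 CD8 T and NK cell markers 3 were tested, 1 with a higher and 2 with lower values in the knockout. Cd8a was at 1.30 ± 0.17 (SE), or 0.74 with normexp background correction, Cd8b1 at -0.13 ± 0.24 (SE) with the groups overlapping and Klrd1 at -0.47 ± 0.21 (SE) with both knockout arrays below wild type, while Klrb1c and Ncr1 were too dim to be tested. The summed level of those 3 was 10.95 and 14.09 times the 75th percentile on the knockout arrays, against 15.22 and 18.75 on the wild-type arrays. Nearly all of it came from Klrd1. Without Klrd1 the sum was 0.443 and 0.448 on the knockout arrays, against 0.308 and 0.433 on the wild-type arrays. Of 7 macrophage and neutrophil markers 4 were tested, 3 with higher and 1 with lower values in the knockout. Of these, 0 had an unadjusted p under 0.05, where 10.2% of all genes tested did. Of 5 fibroblast and epithelial markers 3 were tested, all with higher values in the knockout, but 2 with median scaling. At that p 1 was higher, Epcam at 0.86 ± 0.22 (SE), where 6.62% of all genes tested were. The part of any of these in the values of Batf, Batf3 or Batf2 was not tested.

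**Figure D5:**
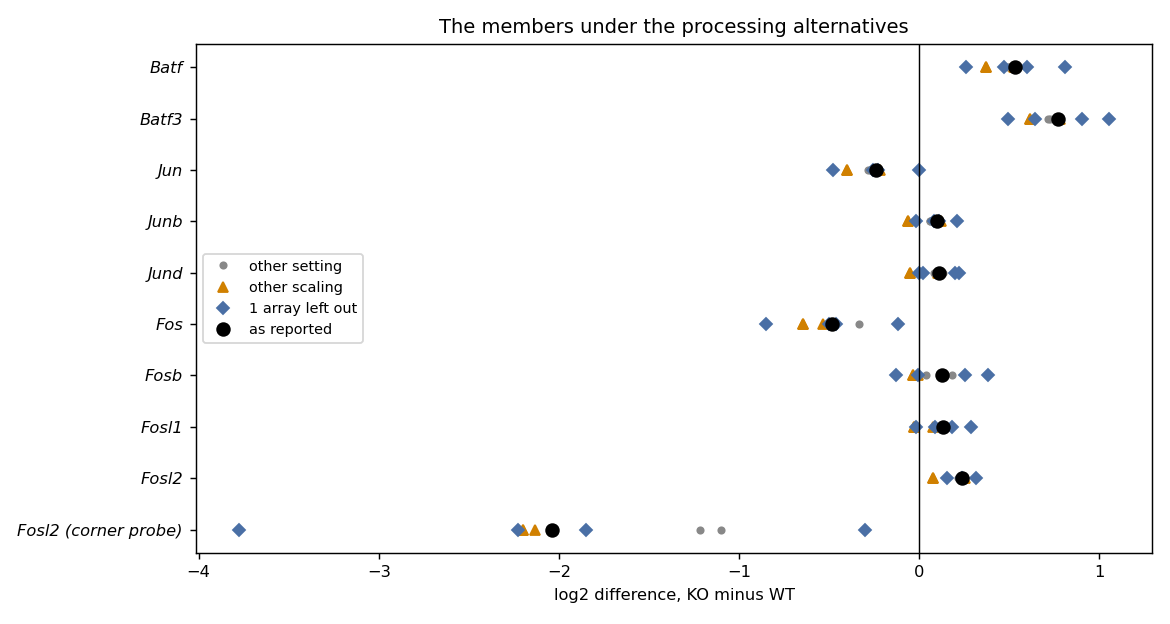
Log2 difference (knockout minus wild type) of each probe of the family as reported (black) and under each alternative, with triangles for other scalings, diamonds for fits that leave out 1 array and dots for the rest. Batf and Batf3 stay above 0 and Fos and Jun at or below it in all alternatives, while Junb, Jund, Fosb and Fosl1 cross 0 under at least 1.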

How the data were processed

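Total RNA labelled with Cy3 was measured on 2 knockout and 2 wild-type arrays. Per the file headers, the authors' scanner outputs came from Agilent Feature Extraction 10.5.1.1. Its deposited processed signal, an intensity on a linear scale, is background-subtracted and, except on knockout array 1, corrected for spatial trends. On that array the multiplicative correction had been applied to 0.801% of the spots well above background. The scanner outputs also hold mean and background intensities and the multiplicative surface, a linear ratio, per the file headers. A log2 value table was also deposited by the authors; how it was made is not given in the sources used here. Each column differed from the log2 processed signal of its array by 1 constant, within 0.001 for 99.96% to 99.998% of probes, and had a median of 5.54.

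Control and outlier spots were left out with pandas 2.3.3, log2 spots of a probe averaged and each array shifted by its 75th percentile. Of 55681 non-control probes, 28 had no unflagged spot on at least 1 array and were not tested. A probe was tested if both arrays of either genotype rated it well above background. limma 3.58.1 in R 4.3.3 (lmFit, eBayes) was fitted on 37195 probes with Benjamini-Hochberg adjustment at 0.05, with 2 residual and 2.2 prior degrees of freedom, and checked on simulated data. For counts, a gene was represented by its tested probe with the highest mean. Lists other than the family were named by up to 4 genes of smallest p, and the genes most like Batf and Fos by distance. Names of genes are those in the files, and 1 of 113 list genes, Hspa1b, had no match. With 2 arrays against 2, the smallest two-sided p of an exact permutation test is 0.333. The number of arrays limits the precision. All arrays lay on 1 slide, with the knockout in slide row 2 and wild type in row 1, so genotype cannot be told apart from the row. The members and lists were chosen with earlier results of these data known.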

Additional observations from a re-analysis of the deposited data

How the results depend on the processing

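The count of probes at an adjusted p of 0.05 was 0 in the reported fit and in all alternatives but 1. Over the fits that left out 1 array it ran from 0 to 53, and the 53, all higher in the knockout, came without wild-type array 1, where the lone wild-type array is assumed to vary like the knockout arrays. The count at an unadjusted p under 0.05 was 3765 of 37195 probes (10.1%), 8797 with normexp background correction, 2243 with 1 probe a gene (19787 probes tested) and 2351 to 3928 without 1 array. With median scaling, and likewise in the deposited matrix, Junb, Jund, Fosb and Fosl1 turned to -0.065, -0.050, -0.035 and -0.027. Fosb turned to -0.0066 with quantile normalization. Egr3 turned to 0.082 with normexp and to 0.048 with knockout array 1 detrended. Without 1 array, Junb ran from -0.019 to 0.21, Jund from -0.00025 to 0.22, Fosb from -0.13 to 0.38, Fosl1 from -0.019 to 0.29 and Irf4 from -0.050 to 0.41. The cause of these turns was not tested. Batf, Batf3, Jun, Fos and both Fosl2 probes kept their direction in every alternative that gave a value, and the smallest adjusted p for any probe of the family was 0.0710, for the corner probe of Fosl2 without knockout array 2.

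Same-numbered arrays did not deviate together (correlation of deviations of -0.0037 over 37195 probes). The replicate block, which is also a block on slide column, gave 0 probes at an adjusted p of 0.05 and 2840 at an unadjusted p under 0.05, and changed no call of the family, with Batf3 at an unadjusted p of 0.0186. A slide term was not run, since all arrays share 1 slide. Leaving out the corner spots while keeping a probe's other spots, and the counts of list genes by setting, were chosen after seeing the data. Dim probes limit what can be read for the list genes that were not tested.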
